A study of Mus musculus with 12 samples.

Results

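CD4 T cells of the small-intestinal epithelium were compared between hosts with transfer colitis and reporter mice, over all 3 sorted subsets. The comparison used 6 arrays titled TR and 6 titled WT, which were all 12 arrays of the study. The cells carried the B6-ThPOK-GFP reporter, in which green fluorescent protein marks expression of ThPOK, the transcription factor of the helper lineage. TR cells came from RAG-/- recipients after transfer of naive CD4 T cells of ThPOK-GFP reporter mice, as a model of colitis, and WT cells came from ThPOK-GFP reporter mice that had received no experimental treatment. Age was given as 10 to 12 weeks for both hosts. Intraepithelial CD4 cells were sorted as ThPOK+CD8a-, ThPOK-CD8a- or ThPOK-CD8a+, called here ThPOK+, CD8a- and CD8a+ cells. Each of the 6 groups had 2 arrays, numbered as replicates 1 and 2, and the 3 arrays of 1 host and replicate are called a set. The labels do not state whether the 2 replicates were separate animals, so a p-value here reflects the spread among these samples alone, and that spread may be technical.

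RAG-/- mice cannot rearrange antigen receptor genes and have no T or B cells of their own. Naive CD4 T cells moved into such a host divide, take on effector functions and, in the absence of sufficient regulatory cells, drive inflammation of the bowel. Transfer colitis is known for T cells that make the Th1 and Th17 cytokines interferon-gamma and interleukin-17, and for its restraint by regulatory T cells and interleukin-10. In the reporter mouse, by contrast, intraepithelial CD4 cells arise in the presence of all other lymphocytes and are shaped by the epithelium and its microbes.

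The hosts of replicate 1 were in conflict. A deposited table of log2 values could be matched to the deposited intensity table through the differences between arrays of a set. For replicate 2, both tables gave each set the same host name (differences equal within 1e-05 on the log2 scale). For replicate 1, each set of one table matched the set with the opposite host name in the other. TR and WT below are the names of the intensity table. Tests are given under those names and again with the hosts of replicate 1 exchanged. A direction between hosts is given only where both namings share it. Since only replicate 2 had agreed hosts, such a direction rests on 1 set per host and is a description without a test of its own.

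Detected probes numbered 12024 to 13091 per array in replicate 1, 7520 to 8195 on the TR arrays of replicate 2 and 6721 to 7118 on its WT arrays. The median raw signal was 113.6 to 130.8 in replicate 1 and 206.7 to 246.2 in replicate 2. Across genes, arrays of the same subset correlated at 0.915 to 0.95 between both sets of replicate 1 and at 0.856 to 0.92 between those of replicate 2. TR replicate 2 correlated at 0.877 to 0.904 with TR replicate 1 and at 0.857 to 0.893 with WT replicate 1. WT replicate 2 correlated with them at 0.8 to 0.846 and 0.804 to 0.835. T cell genes Cd3e, Cd3g, Cd3d, Lck, Cd4 and Cd8a were detected on 12 of 12 arrays, Rag1 and Rag2 on 0 and Cd8b1, the gene of the CD8 beta chain, on 5. Zbtb7b, the gene of ThPOK, had no probe. Cd4 was at 10.12 to 11.23 in log2 signal and Cd8a at 7.21 to 8.40 over the 12 arrays. Cd8a did not follow the sort labels in every set. It was at 8.18 in CD8a- and 8.04 in CD8a+ cells of TR replicate 2, and at 7.39 in ThPOK+ and 7.33 in CD8a+ cells of WT replicate 1. The WT set of replicate 2 stood apart in more genes than any other set. Its 3 arrays lay outside the range of the other 9 in 857 of 10612 genes (8.08%), above it in 294 and below it in 563. The share was 3.46% for TR replicate 1, 4.36% for WT replicate 1 and 3.68% for TR replicate 2.

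No gene was called between hosts under either naming in the main fit, which held no term for the replicate number. A fit with that term is given further below. The fit compared 6 TR with 6 WT arrays, with the subset as a block and the 3 arrays of a set treated as related. It called 0 of 10612 genes (0%) with hosts as in the intensity table (limma, 103 genes at an unadjusted p under 0.05, smallest adjusted p = 1). With the hosts of replicate 1 exchanged it also called 0 (0%), with 135 genes at an unadjusted p under 0.05 and a smallest adjusted p of 0.491. An unadjusted p under 0.05 in the same direction under both namings was found for 1 gene that was higher in TR hosts, Xist, and 1 that was lower, Fos. With 2 sets against 2, an exact two-sided permutation test of set means cannot go below p = 0.333. The gene estimates below are TR minus WT on the log2 scale with their SE.

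Differences between sets whose hosts both tables name alike could be described in replicate 2 alone, with 1 set per host and no test. There, 124 genes (1.17%) differed at least 2-fold in the same direction in all 3 subsets and were detected on all 3 arrays of the brighter set. Of these, 56 (0.528%) were higher in TR and 68 (0.641%) were lower. In replicate 1 the same rule gave 110 genes (1.04%), of which 25 were higher in one set and 85 in the other. Only 12 genes (0.113%) met the rule in both replicates, which is 9.68% of the genes of replicate 2 and 10.9% of those of replicate 1. Averaged over subsets, the replicate 2 difference was the larger in size for 53 of the 56 higher and 64 of the 68 lower genes, and for these the host estimate has 1 sign under both namings. The genes were chosen by their replicate 2 difference, so a larger size there largely follows from the choice. Over all genes the mean difference was larger in replicate 2 for 57.8%, with an SD of 0.566 against 0.445 in replicate 1. The 2 sets of replicate differences correlated across genes at 0.115 as named, and at -0.115 with hosts exchanged. The WT set of replicate 2 lay outside the other 9 arrays in 65 of the 124 genes (52.4%) and the TR set in 21 (16.9%). These shares also rise through the choice of genes. Among the 110 genes of replicate 1, the sets named TR and WT in replicate 1 lay outside in 19.09% and 15.45%. Each set of replicate 2 did so in 4.55% of them.

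**Figure D1:**
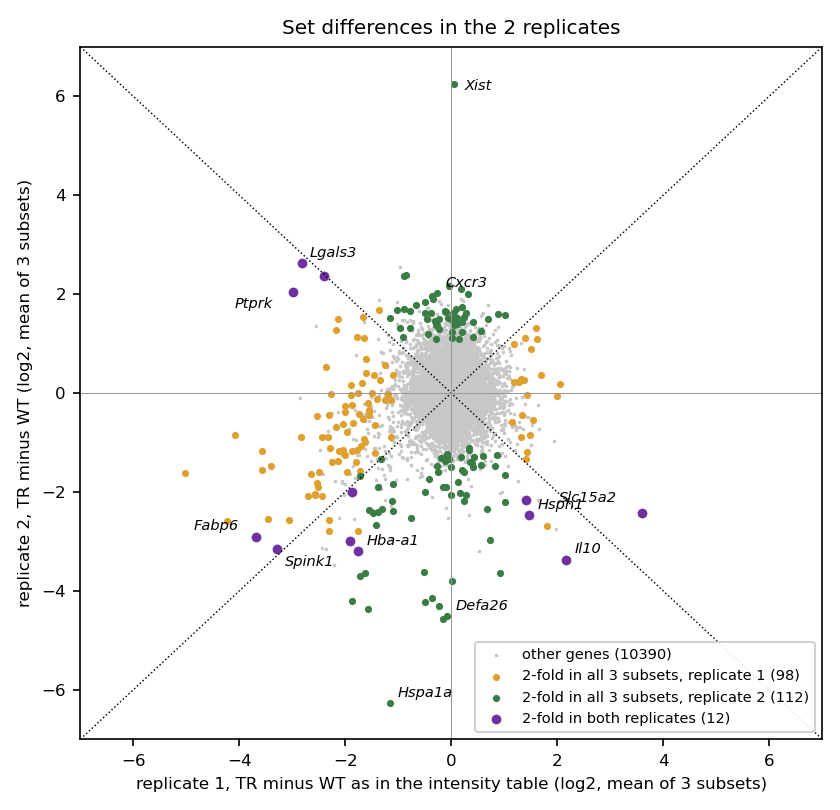
Each point is 1 of 10612 genes, with the difference TR minus WT averaged over 3 subsets (log2) in replicate 1 on the x axis, hosts as in the intensity table, and in replicate 2 on the y axis. Genes in the upper and lower sectors between the dotted diagonals have the larger difference in replicate 2 and keep their sign when the hosts of replicate 1 are exchanged. Xist and Hspa1a lie farthest from 0 on the y axis, at 6.25 and -6.27, and the 12 genes past 2-fold in both replicates (purple) lie near the diagonals.

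Xist and Hspa1a had the largest differences in replicate 2, in opposite directions. Xist, the noncoding RNA that coats the inactive X chromosome, had a log2 signal of 11.43, 11.79 and 11.65 in ThPOK+, CD8a- and CD8a+ cells of the TR set of replicate 2. In the WT set it was 5.31, 5.18 and 5.62 and was detected on 0 of 3 arrays. In replicate 1 it was 10.56, 11.39 and 11.41 in one set and 11.20, 10.92 and 11.10 in the other. The 3 WT arrays of replicate 2 were thus low and the other 9 were high, without overlap. Xist was at least 27.3-fold higher in the TR set of replicate 2, a lower bound that sets the brighter mean against the detection limit of the dimmer arrays. This bound and those below hold for the main processing alone. The host estimate was 3.15 ± 1.23 as named and 3.10 ± 1.24 with hosts exchanged (limma adjusted p = 1 for both).

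Genes of the Y chromosome were looked at after these values were seen. Eif2s3y, a translation initiation factor subunit, was at 10.09, 9.89 and 9.96 in the WT set of replicate 2 and between 7.05 and 8.90 on the other 9 arrays. Ddx3y, an RNA helicase, was detected on 12 of 12 arrays, at 11.65 to 12.39. Uty was highest in the WT set of replicate 2, at 8.04, 7.81 and 7.84. Kdm5d, a histone demethylase gene, did not separate the sets in this way. It was at 7.42, 7.49 and 5.92 in WT replicate 2, at 5.39, 5.52 and 6.21 in TR replicate 2 and at up to 7.44 in replicate 1. The labels used here give no sex. In replicate 2 the host and this difference in sex-linked transcripts cannot be told apart, and their part in the results that follow was not tested.

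**Figure D2:**
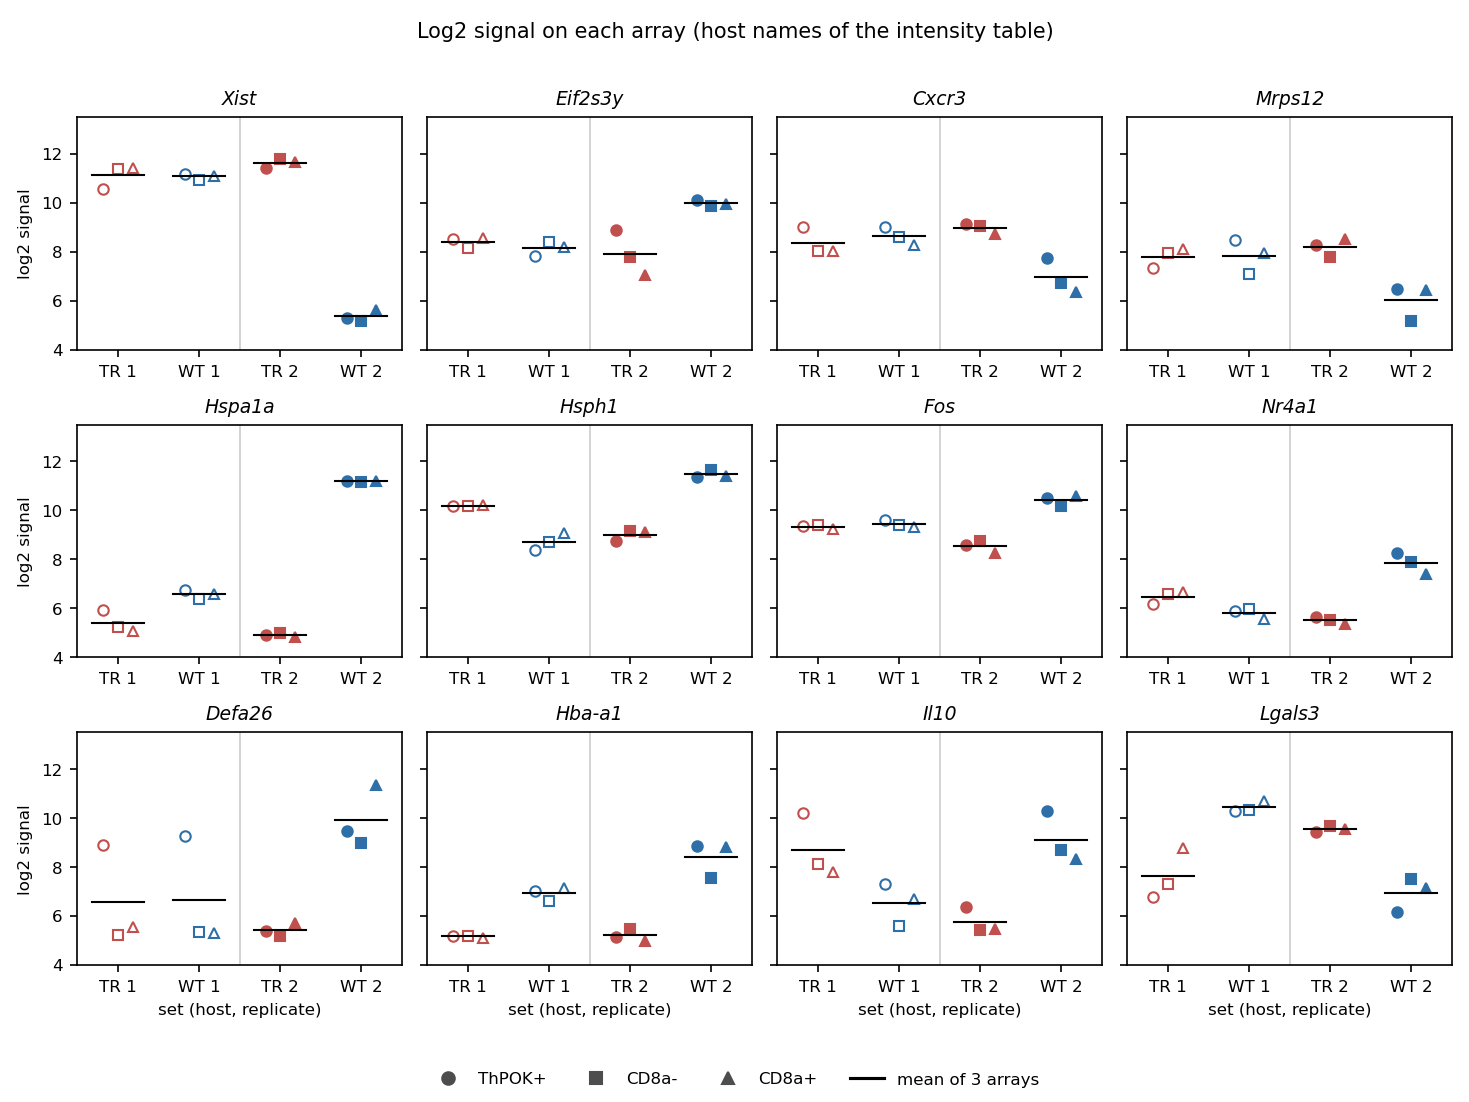
Log2 signal (y axis) of 12 genes on each of the 12 arrays, by set on the x axis (TR and WT with the replicate number, hosts as in the intensity table), red for TR and blue for WT, with open symbols for replicate 1. Circles are ThPOK+, squares CD8a- and triangles CD8a+ cells, and the bar is the mean of 3 arrays. Xist is low and Hspa1a high in WT replicate 2 alone, whereas Il10 and Lgals3 differ in opposite directions in the 2 replicates.

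Heat shock and immediate early genes were lower in the TR set of replicate 2 than in the WT set. Heat shock genes encode chaperones that refold proteins and are switched on by heat shock factor. Immediate early genes encode transcription factors and phosphatases that appear within minutes of receptor stimulation, and both groups also respond to the handling of cells. Of 26 listed genes, 21 passed the detection filter, and 19 of these were lower in TR. They were lower in all 3 subsets in 16 of 21 (76.2%), against 14.8% of all genes, and 8 of 21 passed 2-fold in all 3 subsets, against 0.641% of all genes. The median difference was -1.06 in replicate 2, against 0.035 over all genes, and -0.038 in replicate 1. Without the filter, 22 of 24 measured members were lower. None was called between hosts under either naming in the main fit. The WT set of replicate 2 was above the other 9 arrays in 11 of 21 genes, against 294 of 10612 over all genes. The list mean was 9.18 to 9.43 in that set and 7.89 to 8.11 in TR replicate 2. It was 8.28 to 8.45 in TR replicate 1 and 8.29 to 8.39 in WT replicate 1. The 2 sets of replicate 1 overlapped and lay between those of replicate 2. The genes of this list named here beyond Hspa1a, Fos and Nr4a1 were chosen after their values were seen.

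Windows around the start of 2 chaperone genes and 2 immediate early genes are shown. These genes were taken because they differed most within the list or had an unadjusted p under 0.05 under both namings. The windows are RefSeq sequences of build GRCm38.p6, from 250 bases before to 50 bases after the gene's start, on the strand of the gene. Hsph1 had 2 windows, of which 1 is shown, and its match at base 292 of the window lies after the start. Capitals mark the heat shock element core GAANNTTC in the chaperone genes and the core TGACG of the cyclic AMP response element, or its reverse complement, in the immediate early genes. Hspa1a lies at chr17:34972107-34972406 (minus strand), Hsph1 at chr5:149636287-149636586 (minus strand), Fos at chr12:85473640-85473939 (plus strand) and Nr4a1 at chr15:101266596-101266895 (plus strand).
Hspa1a: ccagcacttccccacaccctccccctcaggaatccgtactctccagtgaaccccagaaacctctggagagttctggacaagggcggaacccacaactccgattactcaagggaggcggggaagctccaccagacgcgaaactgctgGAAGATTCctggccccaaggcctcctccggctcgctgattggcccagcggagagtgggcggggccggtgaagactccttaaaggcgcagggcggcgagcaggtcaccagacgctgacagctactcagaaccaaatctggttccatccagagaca
Hsph1: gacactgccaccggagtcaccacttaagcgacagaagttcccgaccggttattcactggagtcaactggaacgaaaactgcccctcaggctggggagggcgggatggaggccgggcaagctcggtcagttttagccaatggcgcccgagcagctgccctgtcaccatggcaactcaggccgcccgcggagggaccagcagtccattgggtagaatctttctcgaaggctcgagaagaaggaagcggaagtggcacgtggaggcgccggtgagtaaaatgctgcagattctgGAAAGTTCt
Fos: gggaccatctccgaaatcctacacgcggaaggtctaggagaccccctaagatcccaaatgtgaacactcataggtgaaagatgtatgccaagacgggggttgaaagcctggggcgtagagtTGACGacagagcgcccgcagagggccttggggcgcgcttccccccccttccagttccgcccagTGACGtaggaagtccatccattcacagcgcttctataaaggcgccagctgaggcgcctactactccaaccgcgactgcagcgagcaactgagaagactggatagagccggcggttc
Nr4a1: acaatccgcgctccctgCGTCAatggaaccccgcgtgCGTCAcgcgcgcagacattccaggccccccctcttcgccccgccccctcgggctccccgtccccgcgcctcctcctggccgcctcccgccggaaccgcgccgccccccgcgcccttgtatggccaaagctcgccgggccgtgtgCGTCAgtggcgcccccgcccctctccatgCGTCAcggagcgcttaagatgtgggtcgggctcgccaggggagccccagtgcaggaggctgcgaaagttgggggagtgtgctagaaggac
The heat shock core was present on either strand in 7.86% of 32851 windows and in 4 of the 18 list genes with a window. TGACG was present in 20.81% of windows and in 11 of the 18. The percentages count single windows, whereas a list gene was counted when any of its windows matched. The gene counts are therefore not directly comparable with those percentages. These are matches of letters in these windows and say nothing of binding by a factor.

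Hspa1a, an inducible Hsp70 chaperone gene, had the largest difference of the list. It was at 11.21, 11.17 and 11.18 in ThPOK+, CD8a- and CD8a+ cells of WT replicate 2 and at 4.91, 5.0 and 4.84 in TR replicate 2, where it was detected on 0 of 3 arrays. In replicate 1 the values were 5.94, 5.22 and 5.07 in one set and 6.76, 6.37 and 6.59 in the other. Only the WT set of replicate 2 was high, and it was at least 25.0-fold above the TR set. Host estimates were -3.71 ± 1.00 as named and -2.55 ± 1.28 with hosts exchanged (limma adjusted p = 1 for both). Its probe may not separate Hspa1a from the near-identical Hspa1b.

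Hsph1, a chaperone that assists Hsp70 proteins, was at 11.36, 11.66 and 11.39 in WT replicate 2 and at 8.76, 9.15 and 9.10 in TR replicate 2. Between the sets of replicate 1 it differed too, at 10.17, 10.18 and 10.21 against 8.36, 8.71 and 9.08. All 4 sets differed in level except that TR replicate 2 and WT replicate 1 overlapped. The difference in replicate 2, -2.46, was larger in size than the 1.47 of replicate 1. Dnajb1, a partner of Hsp70 chaperones, differed by -1.41 in replicate 2 and by 0.39 in replicate 1, and Hsp90aa1 and Hspa8 differed by -1.06 and -1.05 in replicate 2.

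Fos, a subunit of the transcription factor AP-1, was at 8.59, 8.74 and 8.27 in TR replicate 2 and at 10.52, 10.20 and 10.59 in WT replicate 2. The 6 arrays of replicate 1 lay between these, from 9.24 to 9.59, and did not overlap with either. The host estimate was -1.0 ± 0.36 as named and -0.90 ± 0.39 with hosts exchanged (limma adjusted p = 1 for both). Nr4a1, an orphan nuclear receptor gene that follows T cell receptor signals, was at 8.27, 7.90 and 7.41 in WT replicate 2 and was not detected on the 3 TR arrays of replicate 2, where it measured 5.66, 5.52 and 5.34. It was at least 2.5-fold higher in that WT set, and on the 6 arrays of replicate 1 it lay between 5.55 and 6.66. Fosb, Jun and Dusp1, which encode 2 further AP-1 subunits and a phosphatase of MAP kinases, differed by -2.0, -1.36 and -1.33 in replicate 2 and by -0.50, -0.11 and -0.04 in replicate 1. Jund and Dusp2 were the 2 members with a higher mean in TR replicate 2, and neither kept 1 sign over the 3 subsets. Jund was detected on 0 arrays of replicate 2, and Dusp2 differed by 0.81 there and by -0.94 in replicate 1.

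**Figure D3:**
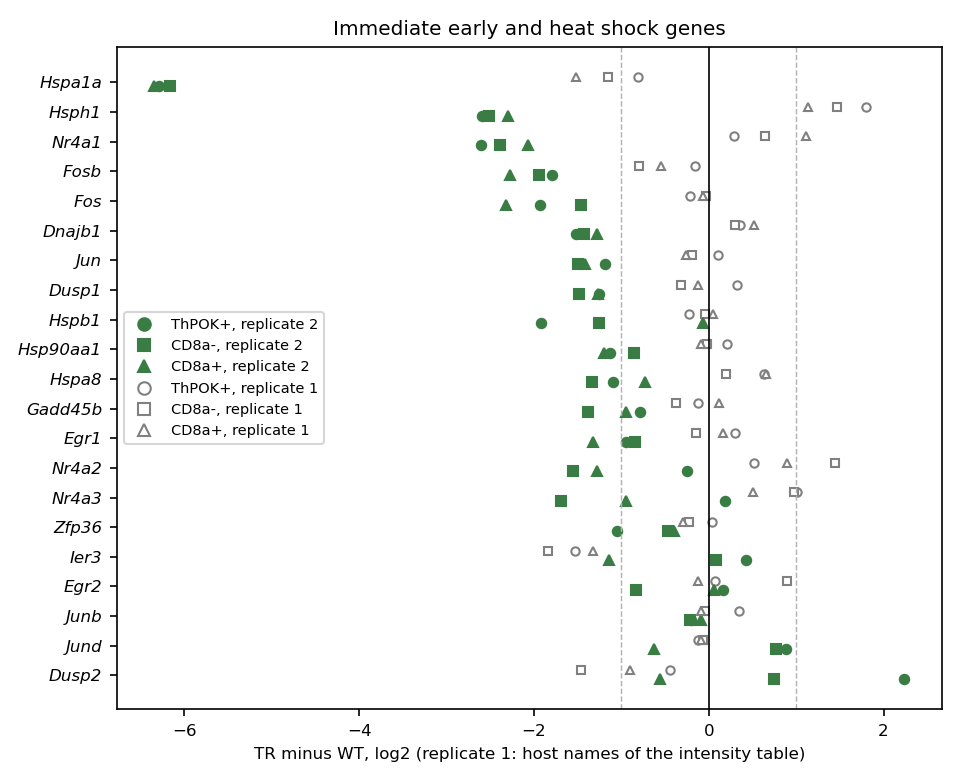
TR minus WT (x axis, log2) for each of 21 immediate early and heat shock genes (y axis), with 1 symbol per subset. Filled green symbols are replicate 2 and open grey symbols replicate 1, with hosts of the intensity table, and dashed lines mark 2-fold. In replicate 2, 16 genes have all 3 symbols left of 0, from Hspa1a at about -6.27 to Junb at -0.17, and in replicate 1 the median gene lies at -0.038.

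The genes lower in TR replicate 2 by the rule for naming included transcripts of Paneth cells, the epithelial cells at the crypt base that secrete antimicrobial peptides. Of the 12 lowest by that rule, 8 were of this kind. They were the alpha-defensin and defensin-related genes Defa26, Defa21, Defa5, AY761184, DEFCR20, DEFCR6 and DEFA1 and the lectin gene Itln1. Defa26 was at 9.49, 8.97 and 11.33 in ThPOK+, CD8a- and CD8a+ cells of WT replicate 2 and at 5.38, 5.18 and 5.72 in TR replicate 2, detected on 3 and 0 arrays. In both sets of replicate 1 only the ThPOK+ array was high, at 8.91 and 9.26, and the other 4 arrays lay between 5.24 and 5.53. Defa26 was at least 10.5-fold higher in WT replicate 2 than in TR replicate 2, AY761184 at least 11.3-fold and Itln1 at least 10.0-fold. DEFCR6 was detected on 2 of 3 arrays of TR replicate 2, at 8.62 and 7.01, and on 3 of 3 of WT replicate 2, at 11.30, 11.10 and 12.40. Besides Hspa1a, the other lower genes of that rule were Errfi1, which encodes an inhibitor of the EGF receptor, at least 5.37-fold lower in TR, and LOC100044291 and LOC100046232, which carry no gene name here. Alpha-defensin genes are close copies and their probes may share signal. The host estimate of Defa26 was -2.29 ± 1.38 as named and -2.22 ± 1.40 with hosts exchanged (limma adjusted p = 1 for both). In bulk samples such as these, fewer cells of a type and less RNA per cell cannot be told apart.

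The same was seen over the whole list of Paneth and goblet cell markers. Of 35 listed genes, 18 were measured, 17 were lower in TR replicate 2 and 10 passed 2-fold in all 3 subsets, with a median of -3.39. Over all genes, 4898 of 10612 were lower and 0.641% passed 2-fold lower. The list mean was 7.24 to 10.14 in WT replicate 2, 5.48 to 5.76 in TR replicate 2, 5.31 to 7.52 in TR replicate 1 and 5.83 to 9.53 in WT replicate 1. Within 3 of the 4 sets the arrays were widely spread, and only TR replicate 2 was uniformly low. The gut epithelium list, 26 measured of 35, was lower in TR replicate 2 in 25 genes with a median of -1.57, and 1 gene passed 2-fold in all 3 subsets. It differed by more between the sets of replicate 1, at a median of -2.0 as named, so its host direction depends on the naming and none is given over both replicates. The sorted samples held epithelial transcripts in amounts that differed between arrays, and the part of these transcripts in the other differences was not tested.

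Globin transcripts of red blood cells also differed in replicate 2. Hba-a1, the alpha globin gene, was at 8.85, 7.57 and 8.80 in WT replicate 2 and was not detected in TR replicate 2, at 5.15, 5.48 and 4.99. In replicate 1 it was not detected in one set, at 5.11 to 5.19, and was at 7.0, 6.60 and 7.15 in the other. It was at least 3.65-fold higher in WT than in TR replicate 2. Hbb-b1 and Hbb-b2, beta globin genes that are close copies, were 5.09-fold and at least 2.36-fold higher there. Of the erythroid list, 4 of 8 genes were measured. These 3 globin genes were lower in TR replicate 2, and the remaining 1 was higher there. The list mean was 7.26 to 7.95 in WT replicate 2 and 5.18 to 6.65 on the other 9 arrays.

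B and plasma cell markers were examined because RAG-/- hosts make no B cells. Of 24 listed genes, 8 were measured, and Cd79a had no probe. Pou2af1, a coactivator gene of B cells, was at 9.46 and 8.07 in ThPOK+ and CD8a- cells of WT replicate 2 and at 9.31 in ThPOK+ cells of TR replicate 1, and was detected on 0 of 3 arrays in each of TR replicate 2 and WT replicate 1. Jchain, which joins antibody chains, was detected on 2 arrays of WT replicate 2, at 7.98 and 8.97, on 1 of TR replicate 1, at 6.28, and on 0 of the other sets. The list mean was 7.12 to 7.77 in WT replicate 2, 6.64 to 6.68 in TR replicate 2, 6.34 to 6.90 in TR replicate 1 and 6.18 to 6.21 in WT replicate 1. In replicate 2 the WT set was above the TR set on each array. Pou2af1 and Jchain were detected in 1 set of each replicate, the one named WT in replicate 2 and the one named TR in replicate 1. Cd79b was detected in the same sets, on 1 array of each, and differed by -0.50 in replicate 2 and 0.48 in replicate 1. The remaining measured markers did not follow that pattern. Sdc1, the gene of syndecan on plasma cells, was detected on 3 of 3 arrays of both sets of replicate 2 and on 0 of replicate 1. Ebf1, a transcription factor gene of B cells, was detected on 3 TR and 2 WT arrays of replicate 2. Xbp1 and Fcer2a were detected on 12 of 12 arrays and differed by 0.27 and -0.23 in replicate 2. Ms4a1 was detected on 2 of 12, 1 in each set of replicate 1. The myeloid list had 9 of 23 genes measured, with Csf1r, the receptor for the macrophage growth factor, detected on 4 of 12 arrays. The myeloid list mean was 5.84 to 6.62 in WT replicate 2, 5.48 to 5.66 in TR replicate 2, 5.41 to 5.77 in TR replicate 1 and 5.67 to 6.66 in WT replicate 1. It includes Lyz1, a lysozyme gene of Paneth cells, at 8.9, 6.7 and 10.8 in WT replicate 2 and 6.7, 5.8 and 5.5 in TR replicate 2. Csf1r differed by 0.03 in replicate 2, so no myeloid difference is drawn from the list mean.

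**Figure D4:**
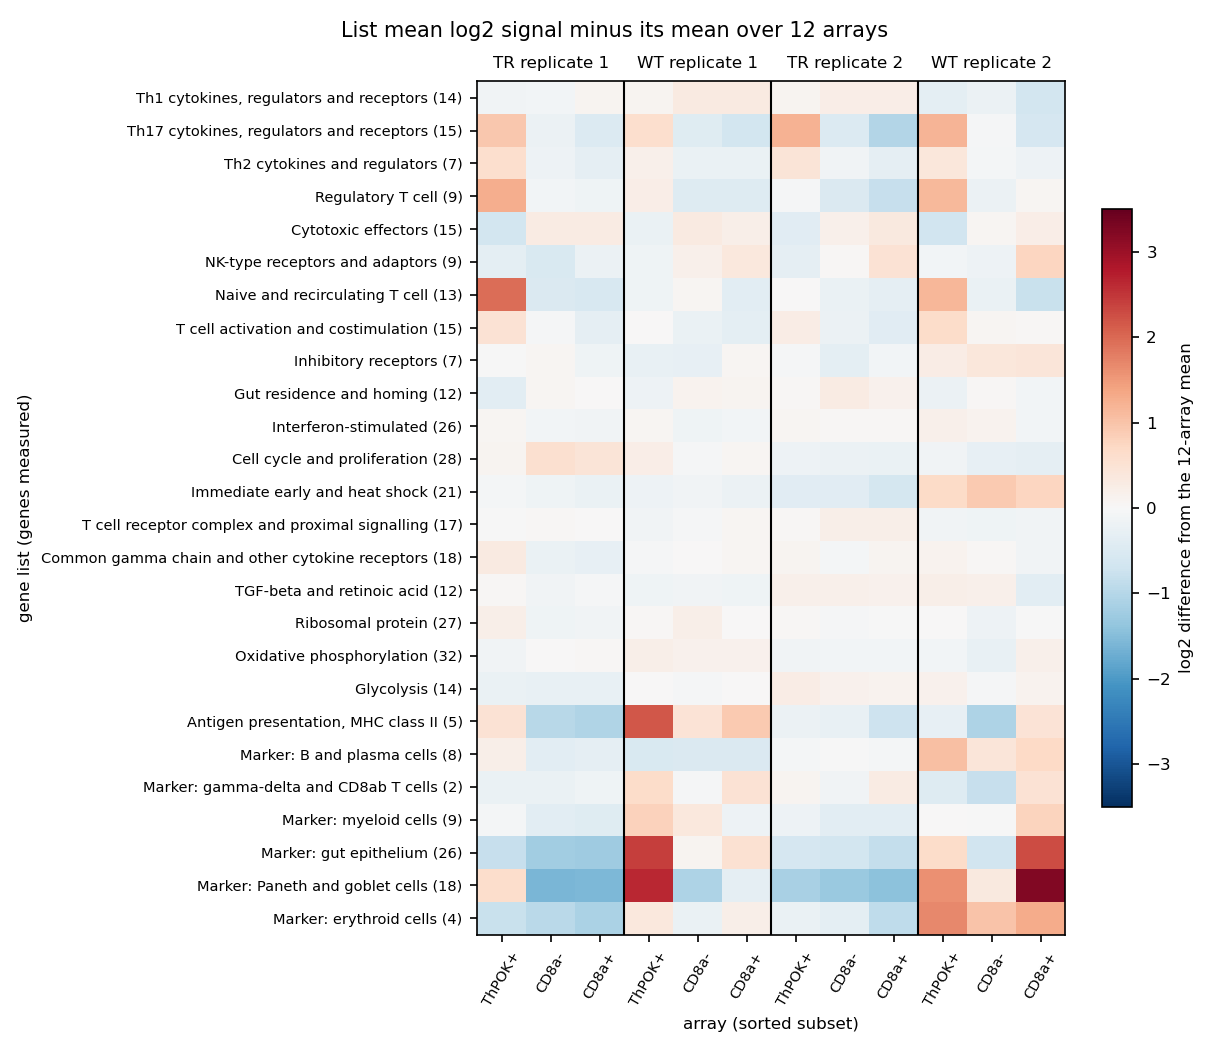
Mean log2 signal of each of 26 gene lists (rows, with the number of genes measured) on each of 12 arrays (columns, by set and subset, hosts as in the intensity table), shown as the difference from the list's mean over the 12 arrays. The immediate early and heat shock row is high on the 3 arrays of WT replicate 2, and the Paneth and goblet row is high on those arrays and on both ThPOK+ arrays of replicate 1.

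Among the 12 genes named as higher in TR replicate 2, Cxcr3 was the brightest after Xist. Cxcr3 encodes the receptor by which Th1 and other effector T cells follow interferon-induced chemokines into inflamed tissue. Its log2 signal was 9.13, 9.04 and 8.73 in ThPOK+, CD8a- and CD8a+ cells of TR replicate 2 and 7.76, 6.74 and 6.35 in WT replicate 2, where it was detected on 1 of 3 arrays. The 6 arrays of replicate 1 lay between 8.02 and 9.03. The 3 WT arrays of replicate 2 were below the other 9. The difference was 2.02 in replicate 2 and -0.26 in replicate 1, and the host estimate was 0.88 ± 0.47 as named and 1.14 ± 0.42 with hosts exchanged (limma adjusted p = 1 for both).

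Most of the other genes higher in TR replicate 2 were measured near the detection limit. Of the 56, 45 were detected on 0 arrays of WT replicate 2, and the median level of the brighter set was 7.57, against 9.0 for the 68 lower genes, of which 29 were detected on 0 arrays of TR replicate 2. Both sets of replicate 1 were closer to TR replicate 2 in 41 of the 56 higher genes and in 33 of the 68 lower ones. Both were closer to WT replicate 2 in 2 and 11 of them. The genes were chosen by their replicate 2 difference, and no count over all genes is given beside these. Mrps12, a protein of the mitochondrial ribosome, was at 8.27, 7.79 and 8.53 in TR replicate 2 and was not detected in WT replicate 2, at 6.49, 5.16 and 6.42, which makes it at least 2.54-fold higher. Lime1, an adaptor that binds the kinase Lck, was at 7.35, 7.36 and 7.57 against 5.67, 5.46 and 6.19, at least 1.49-fold higher. Bounds of the same kind were 2.33-fold for Mtmr9, a myotubularin-related gene, 2.13-fold for Wbp1, a gene of a WW-domain binding protein, 1.66-fold for Dgke, a diacylglycerol kinase gene, and 1.19-fold for Rnf111, a ubiquitin ligase gene. For Arl6ip5, Spryd7, Olfr60 and Tmem167 the bounds ran from 1.04-fold to 1.89-fold.

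The number of genes higher in TR replicate 2 depended on the scaling, and the sign of their mean difference did not. With cyclic loess in place of quantile normalization, 13 genes were higher and 57 lower (18.6% higher, against 45.2%), and with no background correction 4 were higher and 26 lower (13.3% higher). The mean difference of each of the 56 genes kept its sign in both. Cxcr3 differed by 1.71 with cyclic loess and by 1.23 without background correction, and it passed 2-fold in all 3 subsets in the first alone. Xist, Mtmr9 and Hspa1a passed 2-fold in all 3 subsets under both. Without background correction the log2 differences shrank, to 4.27 for Xist, -4.225 for Hspa1a and -2.75 for Defa26. The fold bounds given in the text therefore depend on the processing.

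Most genes of the Th1 list, to which Cxcr3 belongs, were higher in TR replicate 2. Of 18 listed genes, 14 were measured, and 11 of these were higher, 7 in all 3 subsets (50%, against 20.3% of all genes), with a median of 0.28. The median in replicate 1 was -0.24 as named. Cxcr3 and Il18rap, a chain of the interleukin-18 receptor, passed 2-fold in all 3 subsets, and Il18rap differed by 1.51. Lineage genes outside the rule for naming, such as Ifng and Tbx21 here and Il17a, Foxp3 and Prf1 below, were chosen after their values were seen. Ifng and Tbx21, the signature cytokine and the regulator of Th1 cells, differed by 0.21 and 0.24 in replicate 2. Tnf, another inflammatory cytokine, was at 7.57, 6.55 and 7.54 in TR replicate 2 and was not detected in WT replicate 2, at least 1.29-fold higher. Il18r1, the other chain of that receptor, was at 11.44, 10.82 and 10.15 against 11.34, 9.97 and 5.46, so most of its mean difference of 1.88 came from the CD8a+ arrays. The list mean was 9.07 to 9.19 in TR replicate 2, 8.31 to 8.75 in WT replicate 2 and 8.85 to 9.29 in replicate 1. Only the WT set of replicate 2 lay below the rest.

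Th17 genes had no common direction. Of 15 measured genes, 10 were lower and 5 higher in TR replicate 2, with a median of -0.15. Il21, a cytokine that sustains Th17 and follicular helper cells, was at 9.59, 7.19 and 5.15 in TR replicate 2 and at 10.68, 9.82 and 8.04 in WT replicate 2. Its difference was -2.20, and 1.01 in replicate 1. Maf, a transcription factor that activates Il21 and Il10, was at 7.78, 5.93 and 5.27 against 8.63, 7.74 and 8.70, and was detected on 1 of 3 TR and 3 of 3 WT arrays of replicate 2. Il17a, the signature cytokine, differed by -0.55 in replicate 2. Tmem176b and Tmem176a, genes of membrane proteins in the same list, differed by 1.84 and 1.43 in replicate 2, against -1.02 and -0.83 in replicate 1. Of the Th2 list, 7 of 12 genes were measured, with a median of -0.13 in replicate 2.

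Regulatory T cell genes were lower in TR replicate 2 in 9 of 9 measured genes, of 16 listed, with a median of -0.64, and 4 of 9 were lower in all 3 subsets (44.4%, against 14.8% of all genes). With cyclic loess 8 of 9 were lower. Foxp3, the regulator of this lineage, and Ctla4, an inhibitory receptor, differed by -0.72 and -0.73, and Foxp3 was detected on 1 of 3 arrays in each set of replicate 2. In replicate 1 the list median was 0.25 as named, with Foxp3 at 0.69. Inhibitory receptors, 7 measured of 12, were lower in TR replicate 2 in 5 genes and higher in 2, with a median of -0.73. The median was -0.16 over 10 genes without the detection filter and -0.43 over 6 genes with detection on at least 6 arrays. Havcr2, the gene of TIM-3, was detected on 0 of 3 arrays of TR replicate 2, at 6.33, 5.77 and 6.42, and was at 7.43, 8.14 and 7.74 in WT replicate 2, at least 2.35-fold higher. The 6 arrays of replicate 1 ran from 6.50 to 7.93 and overlapped with the WT set of replicate 2. Pdcd1, the gene of the inhibitory receptor PD-1, differed by -0.81 in replicate 2, and Lag3 was detected on 0 arrays of that replicate. Pdcd1 was detected on 0 of the 6 arrays of replicate 1 and on 6 of those of replicate 2.

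Cytotoxic effector genes, 15 measured of 18, had a median of 0.074 in replicate 2, and -0.004 with cyclic loess, so no direction is given. Gzmb, the gene of granzyme B, was at 5.75, 8.51 and 9.57 in ThPOK+, CD8a- and CD8a+ cells of TR replicate 2 and at 7.66, 9.42 and 9.87 in WT replicate 2, a mean difference of -1.04. In replicate 1 it was at 6.39, 8.84 and 9.45 in one set and at 6.95, 8.2 and 8.52 in the other. The order of subsets was the same in all 4 sets, with ThPOK+ cells lowest. Serpinb9, an inhibitor of granzyme B, was detected on 0 of 3 arrays of WT replicate 2 and was at least 1.5-fold higher in TR replicate 2. Perforin, encoded by Prf1, differed by -0.02. Klrd1, the CD94 chain of NK-type receptors, was at 5.6, 6.47 and 7.69 in TR replicate 2 and at 7.02, 7.18 and 9.67 in WT replicate 2, a mean difference of -1.37 against 0.26 in replicate 1.

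Genes of the T cell receptor complex differed little. Of 17 measured genes, 14 were higher in TR replicate 2 (11 with cyclic loess), with a median of 0.30, and 0 passed 2-fold. The receptor chains Cd3d, Cd3e and Cd3g differed by 0.02, 0.02 and 0.05 and the kinase gene Lck by 0.30. Cd2, an adhesion receptor, had the largest difference, 1.30, from 9.50, 8.91 and 8.51 in TR replicate 2 against 9.37, 7.36 and 6.29 in WT replicate 2. Gut residence and homing genes, 12 measured of 17, had a median of 0.24. In that list Itga4, an integrin chain for entry into the gut, differed by 1.16, and Itgae, which encodes CD103, and Ccr9, the receptor for the gut chemokine Ccl25, by 0.37 and 0.25. Tgfbr2, a receptor for TGF-beta, was at 10.31, 10.41 and 10.31 in TR replicate 2, above the other 9 arrays, which ran from 9.15 to 9.91. Its difference was 0.75 in replicate 2 and -0.01 in replicate 1. Naive and recirculating T cell genes were lower in TR replicate 2 in 9 of 13 measured genes, with a median of -0.43. The median was 0.18 when detection on at least 6 arrays was asked for, so no direction is given. Satb1, a chromatin organiser of T cells in that list, differed by 1.47, against the list's median.

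Interferon-stimulated, ribosomal and metabolic genes showed no common direction. The medians in replicate 2 were -0.002 for 26 interferon-stimulated genes, -0.033 for 28 cell cycle genes, 0.011 for 27 ribosomal protein genes, -0.086 for 32 oxidative phosphorylation genes and 0.011 for 14 glycolysis genes, and 0 members of these lists passed 2-fold in all 3 subsets. Gbp2, an interferon-induced GTPase, differed by 1.26, from 8.88, 8.65 and 8.69 against 7.92, 8.54 and 5.99, where the CD8a+ array of WT replicate 2 was low. Ifit3, another interferon-induced gene, differed by -0.60. Top2a, a topoisomerase gene of dividing cells, was detected on 3 TR and 0 WT arrays of replicate 2 and was at least 1.56-fold higher in TR, with a difference of 0.55 in replicate 1.

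Of the 12 genes past 2-fold in both replicates, 7 differed in opposite directions as the intensity table names the hosts. Il10, the gene of the anti-inflammatory cytokine interleukin-10, was at 6.35, 5.41 and 5.48 in TR replicate 2, where it was detected on 0 of 3 arrays, and at 10.30, 8.71 and 8.34 in WT replicate 2. In replicate 1 it was at 10.19, 8.11 and 7.80 in the set named TR and at 7.32, 5.58 and 6.69 in the set named WT. One set of each replicate was high in Il10 and the other low, with ThPOK+ cells highest in all 4 sets. The differences were 2.17 in replicate 1 and -3.37 in replicate 2, and in replicate 2 the WT set was at least 5.97-fold higher.

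Lgals3, the gene of the lectin galectin-3, had the reverse pattern. It was at 9.44, 9.67 and 9.56 in TR replicate 2 and 6.15, 7.50 and 7.12 in WT replicate 2, and at 6.75, 7.32 and 8.77 and 10.30, 10.33 and 10.71 in the sets named TR and WT in replicate 1. The sets high in Lgals3 were those low in Il10. Slc15a2, a transporter of small peptides, was high in the same sets as Il10, at 8.29, 7.76 and 7.49 in WT replicate 2 and 9.08, 9.91 and 9.64 in TR replicate 1, against 5.24 to 6.62 on the other 6 arrays. Ptprk, a receptor tyrosine phosphatase gene, and AA467197 were high in the same sets as Lgals3, with differences of 2.05 and 2.37 in replicate 2 and -2.99 and -2.41 in replicate 1. Lgals3, Slc15a2, Ptprk and AA467197 differed by more in replicate 1 than in replicate 2, so the sign of their host estimate depends on the naming. Il10, Hsph1 and Glp1r, the receptor gene for glucagon-like peptide, differed by more in replicate 2, and their estimates were below 0 under both namings.

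The remaining 5 of the 12 genes differed in the same direction as named. Spink1, a trypsin inhibitor, Fabp6, an ileal bile acid binding protein, Atp1b1, a subunit of the sodium pump, Ccl25, the chemokine with which the small intestine attracts T cells, and Hba-a1 were all higher in the set named WT in each replicate. Their estimates as named were -3.22 ± 0.91, -3.29 ± 1.02, -2.45 ± 0.85, -1.94 ± 0.69 and -2.48 ± 0.50, and with hosts exchanged they were 0.07 ± 1.32, 0.39 ± 1.41, -0.54 ± 1.11, -0.06 ± 0.90 and -0.72 ± 0.86. None was called under either naming. Spink1 and Fabp6 thus changed sign with the naming, and their host direction is not given.

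Pairing the arrays by replicate number gave calls under 1 naming and none under the other. With the replicate number as a block, 0 genes (0%) were called with hosts as in the intensity table (limma, 1192 genes at an unadjusted p under 0.05, smallest adjusted p = 0.0558). With the hosts of replicate 1 exchanged, 12 (0.113%) were called, 8 higher and 4 lower, and 1023 had an unadjusted p under 0.05. Without the block, 103 and 135 genes had an unadjusted p under 0.05. No gene was called under both namings, so no host difference is drawn from these calls. Under the exchanged naming, Ptprk was higher in TR by 2.52 ± 0.21 (limma adjusted p = 0.00282), Lgals3 by 2.73 ± 0.26 (adjusted p = 0.00426) and Il18rap by 1.34 ± 0.17 (adjusted p = 0.0218). Slc15a2 was lower by -3.01 ± 0.30 (adjusted p = 0.00426), Hsph1 by -1.97 ± 0.21 (adjusted p = 0.00554) and Il10 by -2.77 ± 0.31 (adjusted p = 0.00784). As named in the intensity table the same fit gave Il10 -0.60 and Lgals3 -0.10. Of these 6 genes, Hsph1, Il10 and Il18rap had the larger difference in replicate 2, so that their estimates have 1 sign under both namings.

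Leaving out 1 set of replicate 1 gave calls in which WT replicate 2 was the only WT set. Without WT replicate 1, the fit as named called Hspa1a at -5.85 ± 0.35 (limma adjusted p = 2.39e-04) and Xist at 5.82 ± 0.35. Without TR replicate 1 and with hosts exchanged, it called Xist at 5.75 ± 0.33, Hspa1a at -5.29 ± 0.51 (adjusted p = 0.0151) and Hsph1 at -2.60 ± 0.30 (adjusted p = 0.0437). In both fits the spread between sets came from the 2 TR sets alone, and WT replicate 2 was assumed to vary like them. The p-values therefore describe how far that 1 set lay from the others and are no test of the host.

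The host difference was not shown to differ between subsets. The interaction of host and subset, tested within sets, called 0 of 10612 genes (0%) as named (limma, 378 at an unadjusted p under 0.05, smallest adjusted p = 1.00) and 0 (0%) with hosts exchanged (426, smallest adjusted p = 0.949). No gene had an unadjusted p under 0.05 under both namings. The fit had 4 residual degrees of freedom, which limits what it could call.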

How the data were processed

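All 12 arrays were Illumina MouseRef-8. The deposited intensity table held, per the file headers, an average signal and a detection score (a fraction from 0 to 1) for each probe, not normalized. The header names GenomeStudio 1.0.6. A second deposited table of log2 values named other hosts for replicate 1. Its within-set differences identified the sets, and 72 further columns were not used. Here, intensities were background corrected and quantile normalized with neqc (limma 3.58.1, R 4.3.3), keeping 14635 of 25697 probes, those with a detection p under 0.05 on at least 2 arrays, and the brightest probe of each of 10612 genes. Models held subset and host, with the 3 arrays of a set correlated (duplicateCorrelation), and p-values were Benjamini-Hochberg adjusted at 0.05. Arrays with the same replicate number deviated together in all 15 pairs of groups (r from 0.36 to 0.659 as named, 0.143 to 0.604 exchanged). What arrays of a replicate number had in common is not stated by the labels and was not tested. The main model held no replicate term, which was added as an alternative. Scripts were tested on simulated data. Genes were named by a rule: the 12 higher and 12 lower genes of replicate 2 with the smallest of 3 subset differences largest and a replicate 1 difference of less than 0.5 times that size, 5 of each sign among genes past 2-fold in both replicates, up to 3 per list, sorting genes and B cell markers. Members and gene lists were chosen with earlier results of these data known. Alternatives covered normalization, background correction, filters, the fold threshold, the replicate block and each array or set left out. The number of arrays limits the precision.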

Additional observations from a re-analysis of the deposited data

Results flagged for a closer look

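Each group of 6 arrays examined here mixed sorted subsets and replicate numbers, and groups shared arrays and closely related genes. The number of groups with 1 array far from the rest therefore cannot be compared with a chance rate. In 22 of 240 such groups, 1 array lay far from the other 5. In 21 of the 22 that array was of ThPOK+ cells of replicate 1. Among the 6 arrays named TR in the intensity table, that array was highest for the regulatory T cell list (8.05), the naive T cell list (9.13), the Paneth and goblet list (7.52), Hspa1a (5.94), Defa26 (8.91), Defa21 (9.06), AY761184 (9.38), DEFCR20 (9.16), Defa5 (7.25), Itln1 (9.62), Atp1b1 (8.28) and Ccl25 (10.07), and lowest for Xist (10.56) and Wbp1 (6.62), all in log2 signal. With the hosts of replicate 1 exchanged, the ThPOK+ array of the set named WT in the intensity table was highest among the 6 TR arrays for the Paneth and goblet list (9.53), Defa26 (9.26), LOC100044291 (8.01), Defa21 (9.82), AY761184 (9.57), DEFCR20 (9.41) and Defa5 (8.5). The CD8a+ array of WT replicate 2 was highest for the NK-type receptor list (8.22) among the 6 WT arrays under that naming.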

How the results depend on the processing

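With 2 sets per host, 0 genes were called between hosts under both namings with any of the alternatives, including each array or set left out. As named in the intensity table the count ranged from 0 to 2 with a set or array left out, reaching 2 (Hspa1a and Xist) without the WT set of replicate 1. With hosts exchanged it ranged from 0 to 3, reaching 3 without the TR set of replicate 1, was 2 (Il10 and Lgals3) with the arrays of a set treated as unrelated, and was 12 with the replicate number as a block. Under the block as named it was 0. The interaction with subset gave 0 calls in each of its alternatives, the replicate block included. Of the genes past 2-fold in all 3 subsets, the 124 of replicate 2 became 70 with cyclic loess, 30 without background correction, 312 at 1.5-fold, 38 at 3-fold and 446 by the mean over subsets. The 110 of replicate 1 became 21 without background correction, 290 at 1.5-fold, 33 at 3-fold and 308 by the mean. With 1 array left out, which leaves 2 subsets to pass in its replicate, the counts ranged from 118 to 424 in replicate 2 and from 109 to 238 in replicate 1. Each of the 6 arrays of replicate 2 alone raised its count to between 301 and 424, the highest without the WT ThPOK+ array, and each of replicate 1 raised its own to between 173 and 238. Single genes and list medians were followed under other normalization, background correction and filters and with 1 array left out. There, the 760 host estimates of named genes kept their side of the threshold. Of the other values, 381 list medians and 1771 replicate differences moved by less than the spread. The remaining 35 and 77 moved by more. No named gene past 2-fold in all 3 subsets changed the sign of that difference. Sign changes of list medians were not marked, and some occurred. The naive list went from -0.43 to 0.18 with detection on at least 6 arrays. Hspa1a and Xist did cross the threshold with a set of replicate 1 left out, as given above. The causes were not tested. The low signal of many probes limits what can be measured: 45 of the 56 genes higher in TR replicate 2 were detected on no array of WT replicate 2.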

Other observations

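Values are given here for some genes outside the lists that passed 2-fold in all 3 subsets of replicate 2, chosen after their values were seen. They include chaperone genes in both directions. Bag3, a cochaperone of Hsp70, differed by -1.50 on the log2 scale in replicate 2 and by -0.01 in replicate 1, with detection on 1 of 3 arrays of TR replicate 2. Stip1, which links Hsp70 to Hsp90, and Hspd1, the mitochondrial chaperonin, differed by -1.39 and -1.15 in replicate 2. Klf4, a transcription factor gene, was at least 2.94-fold lower in the TR set of replicate 2. Crem, which encodes a factor of cyclic AMP responses, differed by -1.65 in replicate 2 and by 1.02 in replicate 1. Cxcr4, a chemokine receptor gene, differed by -2.39 and by -1.11. Creld2 and Canx, genes of the endoplasmic reticulum that take part in protein folding, were higher in TR replicate 2, Creld2 with a difference of 1.52 and Canx at least 1.31-fold. Also higher there were Nfkb1, an NF-kappaB subunit gene, at least 1.41-fold, and Rbpj, the DNA-binding factor of Notch signalling, with a difference of 1.78. None of these was called between hosts under either naming.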
